A study of Homo sapiens with 6 samples.

Results

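Integrins and their counter-receptors are the surface proteins by which leukocytes, plasma cells among them, hold on to other cells and to matrix. The 10 genes described here are those of the integrin subunits ITGA4, ITGA5, ITGAL, ITGAM, ITGAV, ITGB1 and ITGB2, of the counter-receptors ICAM1 and VCAM1, and of the selectin ligand SELPLG. They were chosen by name, and each was read from the probe set of the deposited table that lists only that gene symbol. All 10 have exactly 1 such probe set, out of 18417 genes measured in this way.

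The cells were RPMI 8226, an established line of human myeloma, the cancer of plasma cells; the results are thus those of 1 line, cultured without marrow stroma. One group received 0 Gy and the other 6 Gy of carbon ions, a particle beam with dense ionisation along each track, and RNA was extracted 1 day later. Both groups were kept in the same serum-containing medium. Each group has 3 biotin-labelled, 1-colour arrays, numbered 1 to 3. Whether the 3 came from separate cultures is not stated, and p-values then cover only the spread among these samples, which may be technical. Of 11 plasma cell markers, 9 lay above the array median on all unirradiated arrays, SLAMF7 and CD27 being the dim ones. RNA was pooled over all cells of a sample, so a change in every cell and a change in the share of cells that express a gene cannot be told apart.

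An integrin is a pair of 1 alpha and 1 beta subunit, and the pairing sets what it binds. ITGB1 with ITGA4 binds VCAM1 and fibronectin, a main grip of myeloma cells on bone marrow stroma, and with ITGA5 it binds fibronectin. ITGB2 pairs with ITGAL or ITGAM into leukocyte integrins that bind ICAM1. SELPLG encodes the mucin that endothelial selectins catch during rolling. Before they bind, integrins are switched on from inside the cell by talin and kindlin proteins at the beta tail.

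The question was how the adhesion genes of irradiated cells differed from those of unirradiated cells. ICAM1 and ITGAM rose, ITGB1 fell by a small amount, and the other 7 genes did not pass the test (limma, Benjamini-Hochberg adjusted p under 0.05 over all genes). ICAM1 was 1.36-fold higher and ITGAM 1.44-fold higher, while ITGB1 was 1.19-fold lower. The share of members called, 3 of 10 (30.0%), stands beside 14.5% of all genes (6.35% higher and 8.18% lower). The balance over all genes depended on scaling, with 1431 higher and 1369 lower after quantile normalization and 976 and 1908 with array medians subtracted. The groups did not overlap for 5 of the 10, namely ITGA4, ITGAM, ITGB1, ICAM1 and SELPLG, against 34.7% of all genes. The median log2 difference of the 10 was -0.01 and that of all genes 0.04.

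The upstream sequences of the 3 genes that passed are shown because promoters control how much mRNA a gene gives. Each is the 250 bases before the gene start in RefSeq on GRCh38.p14, in the direction of the gene. ICAM1 lies on the plus strand (chr19:10270870-10271119), ITGAM on the plus strand (chr16:31259725-31259974) and ITGB1 on the minus strand (chr10:32958231-32958480); ITGB1 has a further listed start, which is not shown. Capitals mark matches, on either strand, to any of 5 motifs: GGAAATTCC (an NF-kappaB type site), TTCNNNGAA (the STAT type), GAGGAAG (the PU.1 type), TATAAA (the TATA box) and GGGCGG (the GC box).
ICAM1: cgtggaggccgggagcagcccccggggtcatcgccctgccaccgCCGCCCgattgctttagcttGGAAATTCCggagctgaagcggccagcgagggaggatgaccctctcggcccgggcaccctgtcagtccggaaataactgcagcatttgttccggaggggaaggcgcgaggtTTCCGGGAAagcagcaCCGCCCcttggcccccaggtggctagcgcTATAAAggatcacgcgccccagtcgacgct
ITGAM: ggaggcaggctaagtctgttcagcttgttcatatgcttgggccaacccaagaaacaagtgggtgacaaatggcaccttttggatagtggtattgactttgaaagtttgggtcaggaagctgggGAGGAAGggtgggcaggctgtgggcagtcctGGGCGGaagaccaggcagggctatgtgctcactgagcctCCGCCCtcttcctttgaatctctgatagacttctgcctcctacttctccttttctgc
ITGB1: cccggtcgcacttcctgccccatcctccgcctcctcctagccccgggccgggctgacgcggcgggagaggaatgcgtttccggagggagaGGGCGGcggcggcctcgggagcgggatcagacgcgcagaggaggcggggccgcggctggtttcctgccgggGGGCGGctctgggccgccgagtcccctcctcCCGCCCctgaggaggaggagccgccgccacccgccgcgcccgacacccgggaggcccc

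The ICAM1 window held 4 of the 5 motifs. Its NF-kappaB type match begins 186 bases before the gene start, its STAT type match at 75 and its TATA box at 30, and GC boxes begin at 206 and 59. The exact letters GGAAATTCC were found in 0.41% of the 35116 RefSeq windows of the same length. Other spellings of an NF-kappaB type site were not searched. The 0.41% therefore does not give how rare such sites are, or whether windows of other genes hold them. The STAT type letters were found in 6.57% of windows and the TATA box in 10.7%. The ITGAM window held a PU.1 type match, present in 11.3% of windows, at 127 bases, and GC boxes at 96 and 57. In the ITGB1 window shown only GC boxes were found, at 160, 89 and 58, a motif of 42.6% of windows, and 78.4% of its bases were G or C. The window of the further ITGB1 start held no GC box but TATAAA at 102, 100 and 35, and 41.6% of its bases were G or C. Of the 10 genes, 7 have a window in the RefSeq table. Windows of genes that did not pass held matches too. A window of ITGAV held the PU.1 type letters at 109, that of VCAM1 held TATAAA at 205, 31 and 29, and that of ITGA5 a GC box at 210. The ITGA4 window held none of the 5 motifs. A match of letters is a description of the sequence and was not tested as a binding site.

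All levels that follow are deposited log2 values, on which 1 unit is a 2-fold difference. Brightness depends on a probe set's own sequence, so levels are set only beside the array medians and not against each other. Those medians, taken over all probe sets of an array, lay between 5.64 and 5.72. The medians over the 18417 genes alone were higher, from 6.39 to 6.46. The upper quartile ran from 7.92 to 7.96 on the unirradiated and from 7.87 to 7.91 on the irradiated arrays, so it was lower on every irradiated array. The part of this shift in the falls of bright genes was not tested. The lower quartile ran from 3.89 to 3.97 over all arrays, and there the groups overlapped. No detection calls come with the values.

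ICAM1, an immunoglobulin-family protein that leukocyte integrins bind, read 10.01, 10.14 and 10.08 on unirradiated arrays 1 to 3 and 10.51, 10.46 and 10.60 on the irradiated arrays. All 3 irradiated values stood above all unirradiated values, by more than the spread within either group. The mean went from 10.08 ± 0.06 to 10.53 ± 0.07 (SD, n = 3), a log2 difference of 0.45 ± 0.07 (SE) with a limma adjusted p of 0.00335. With any 1 array left out the difference lay between 0.41 and 0.48, and the call held each time.

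ITGAM, the alpha subunit of the complement-binding integrin of myeloid cells, read 7.01, 6.78 and 6.63 on unirradiated arrays 1 to 3. On the irradiated arrays it read 7.26, 7.32 and 7.42. The groups did not overlap, although the unirradiated values were spread more widely, with an SD of 0.19 against 0.08. The log2 difference was 0.52 ± 0.10 (SE), with a limma adjusted p of 0.00701. It lay between 0.44 and 0.63 with any 1 array left out, and the call held each time. ITGAM is best known from monocytes and neutrophils, so other myeloid genes were read beside it. Of 7 measured, 0 passed limma (with 2 at an unadjusted p under 0.05), beside 14.5% of all genes. The median difference of the 7 was 0.12. Their mean level ran from 5.16 to 5.27 on the unirradiated and from 5.28 to 5.41 on the irradiated arrays. CD68 (9.86 to 10.04) and S100A9 (6.02 to 6.34) lay above the array medians on all arrays, S100A9 still below the medians over genes. The other 5 lay below the array medians, among them CD14 (4.68 to 4.94), LYZ (2.99 to 3.41) and MPO (4.25 to 4.55). The part of such genes in the ITGAM result was not tested.

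ITGB1, the beta subunit shared by most matrix-binding integrins, read 7.85, 7.79 and 7.69 on unirradiated arrays 1 to 3 and 7.52, 7.52 and 7.55 on the irradiated arrays. The irradiated values lay close together and below all unirradiated values. The log2 difference was -0.25 ± 0.07 (SE), with a limma adjusted p of 0.0374. This call was near the threshold: it was lost without any 1 of 5 arrays (adjusted p up to 0.132) and was kept only without unirradiated replicate 3 (0.0411). The direction was lower in each case, with differences from -0.29 to -0.22. After quantile normalization the difference was -0.19 and the adjusted p 0.0772.

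ITGA4, the alpha subunit that pairs with ITGB1 or ITGB7 and binds VCAM1, read 7.83, 7.87 and 7.75 on unirradiated arrays 1 to 3 and 7.64, 7.63 and 7.54 on the irradiated arrays. Its groups did not overlap either, and all irradiated values were the lower ones. The log2 difference of -0.21 ± 0.07 (SE) did not pass, with a limma adjusted p of 0.0679. It passed when the dimmest 33.3% of genes were left out (0.0373) and when array medians were subtracted (0.0421). With quantile normalization the difference was -0.16 and the limma adjusted p 0.146.

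The other matrix-binding alpha subunits overlapped between groups. ITGA5, of the fibronectin receptor, read 6.44 to 6.76 without irradiation and 6.33 to 6.54 with it, a log2 difference of -0.15 (95% interval of limma -0.36 to 0.07). ITGAV, of the vitronectin receptors, read 7.86 to 8.08 and 7.97 to 8.28, a log2 difference of 0.15 (-0.06 to 0.37). These intervals leave room for changes of either sign.

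The leukocyte integrin subunits other than ITGAM overlapped as well. ITGAL, whose product binds ICAM1 on T and B cells, read 7.08 to 7.39 and 7.17 to 7.38, and its log2 difference was 0.04 (95% interval of limma -0.17 to 0.26). ITGB2, the common beta subunit of the leukocyte integrins, read 6.92 to 7.07 and 6.70 to 7.03, and its log2 difference was -0.11 (-0.32 to 0.09). ITGB2 is the partner that ITGAM needs at the cell surface, and it did not pass.

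VCAM1, the counter-receptor of ITGA4 that stroma and endothelium carry, was dim. It read 3.69 to 3.92 without and 3.74 to 4.01 with irradiation, close to the lower quartile of the arrays, and whether that is above background is unknown. Its log2 difference was 0.04 (95% interval of limma -0.16 to 0.25). SELPLG was bright, with 11.76, 11.78 and 11.79 on unirradiated arrays 1 to 3 and 11.69, 11.75 and 11.74 on the irradiated arrays. Its groups did not overlap, but the log2 difference was only -0.05 (95% interval of limma -0.19 to 0.09) and the adjusted p 0.617.

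**Figure D1:**
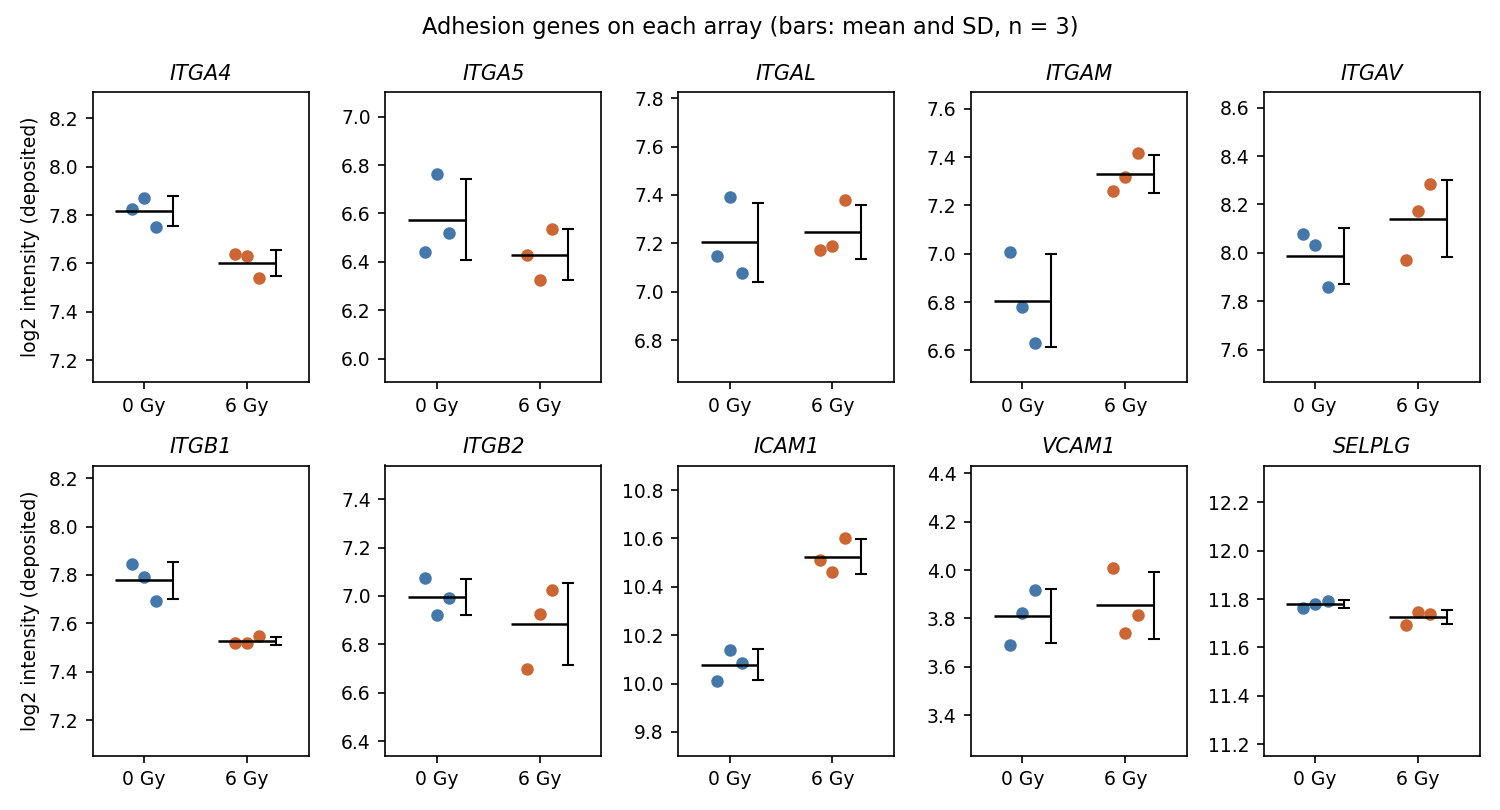
Deposited log2 intensity (vertical axis, each panel spanning the same range) of the 10 adhesion genes on 3 unirradiated (blue) and 3 irradiated (orange) arrays, with mean and SD. ICAM1 lies at 10.01 to 10.14 before and 10.46 to 10.60 after irradiation, and ITGAM at 6.63 to 7.01 and 7.26 to 7.42, whereas VCAM1 overlaps at a low level.

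**Figure D2:**
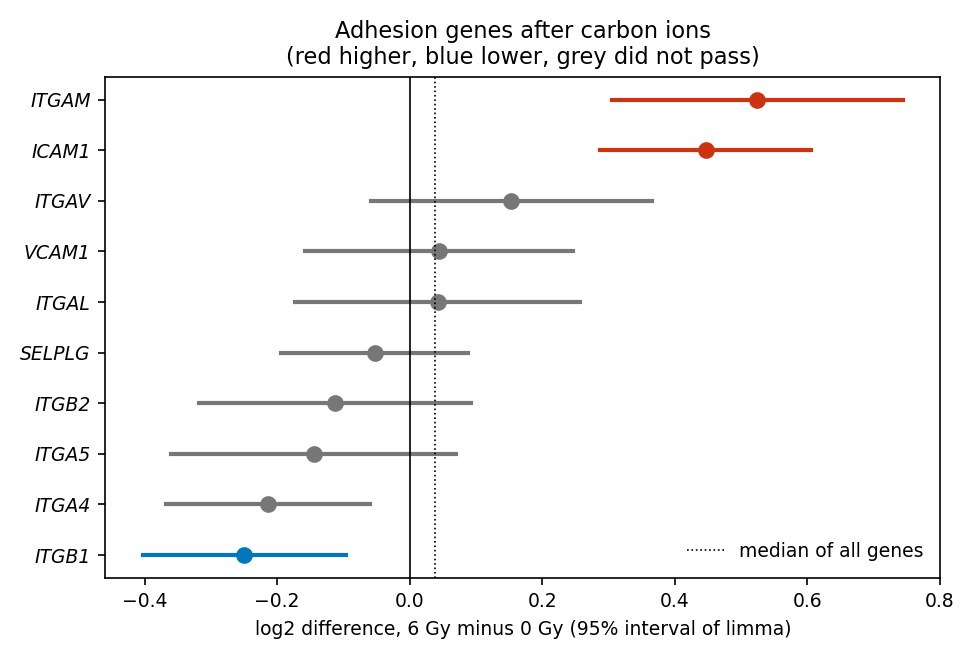
Log2 difference between irradiated and unirradiated arrays (horizontal axis) with the 95% interval of limma for each of the 10 genes; red marks genes called higher, blue lower and grey those that did not pass. ITGAM at 0.52 and ICAM1 at 0.45 stand to the right of the dotted median of all genes at 0.04, and ITGB1 at -0.25 to its left.

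Since an integrin needs both subunits, the log2 ratio of alpha to beta subunit was compared between the groups for 7 known pairs, which were chosen after the values of single genes had been seen. The ITGAM to ITGB2 ratio was 0.64 higher after irradiation, and the irradiated arrays lay 0.58, 0.58 and 0.75 above the unirradiated mean. The ITGAV ratio was 0.40 higher against ITGB1 and 0.56 higher against ITGB5, and that of ITGA4 against ITGB7 was 0.34 higher. ITGAV itself did not pass (0.15), while ITGB1 (-0.25) and ITGB5 (-0.41) were lower. ITGA4 itself was lower (-0.21), and its ratio was higher because ITGB7 was lower still (-0.55). In these 4 pairs the groups did not overlap. Each gave a two-sided exact permutation p of 0.1, the smallest that 3 arrays against 3 can give, and 0.175 after adjustment over the 7 pairs. The ITGA4 to ITGB1 ratio differed by only 0.04, with overlapping groups and an exact p of 0.5, and the subunits' own differences were -0.21 and -0.25. ITGA5 to ITGB1 (0.10, exact p 0.6) and ITGAL to ITGB2 (0.15, exact p 0.3) overlapped too.

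**Figure D3:**
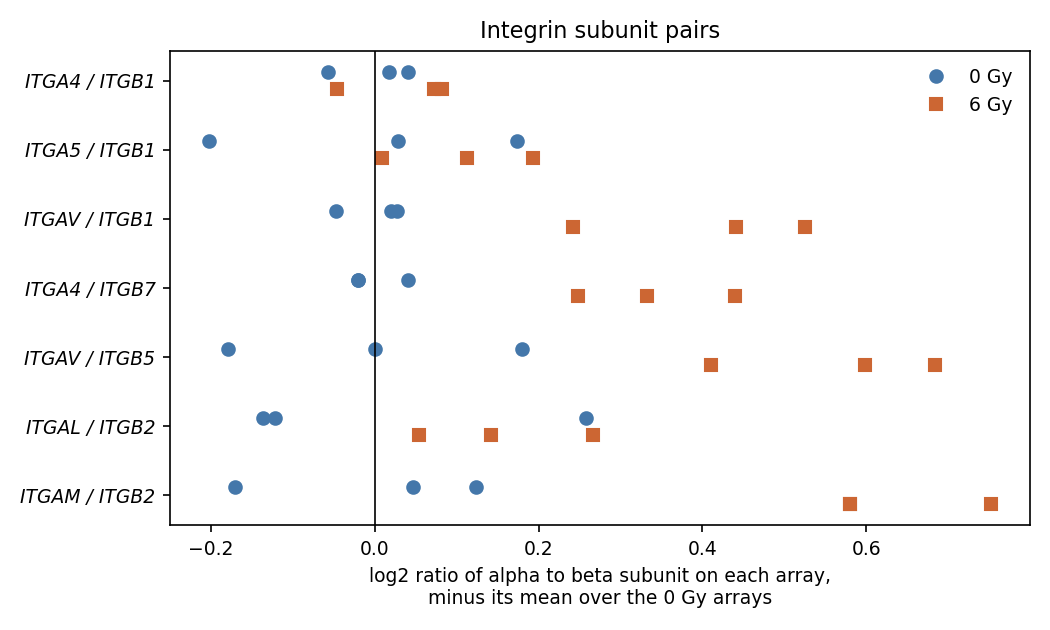
Log2 ratio of the alpha to the beta subunit on each array (horizontal axis), set to 0 at the mean of the 3 unirradiated arrays (blue circles), with the irradiated arrays as orange squares. For ITGAM and ITGB2 the irradiated arrays lie 0.58 to 0.75 higher, while for ITGA4 and ITGB1 the groups overlap; 2 irradiated arrays of ITGAM and ITGB2 share 1 point.

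Among the integrin subunits outside the 10, 2 of 18 measured fell and 0 rose, a share of 11.1% beside 14.5% of all genes. ITGB7, the beta subunit that marks mucosal lymphocytes and many myelomas, lay far above the upper quartile and read 12.88, 12.86 and 12.80 on unirradiated and 12.23, 12.33 and 12.32 on irradiated arrays. All irradiated values lay below all unirradiated ones, and ITGB7 fell by 0.55 ± 0.07 (SE, limma adjusted p 7.38e-04). ITGB5, a partner of ITGAV in vitronectin binding, went from 9.33 to 8.92 on average, a log2 difference of -0.41 ± 0.08 (SE, limma adjusted p 0.00747). The median of the 18 was 0.06, and 4 of them lay above the array median on all unirradiated arrays, so most were dim.

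Genes that switch integrins on or tie them to actin went both ways. Among the 38, 5 rose and 4 fell (23.7% called, beside 14.5% of all genes), and 29 missed the threshold. Their median was 0.11. Of the kindlins, FERMT1, better known from epithelia, rose by 0.52 (log2; limma adjusted p 0.00285), while the leukocyte kindlin gene FERMT3 did not pass (0.20, adjusted p 0.132). APBB1IP, which encodes the adaptor that brings talin to integrins, fell by 0.51, and RAPGEF1, which encodes an activator of the small GTPase RAP1, fell by 0.44. The talin gene TLN1 itself, named after its value was seen, was lower by 0.29 (adjusted p 0.0152), a call lost without any 1 of 3 arrays (up to 0.0608). Genes of the actin link did not move together. ACTN1 (alpha-actinin) rose by 0.47, ZYX (zyxin) by 0.45 and TNS3 (tensin) by 0.40. The homologues ACTN4 (0.06, limma adjusted p 0.668) and TNS1 (0.21, 0.14) did not pass, and neither did VCL (0.02, 0.906). The other calls, also named after their values were seen, were SKAP1 (0.29) and CYTH1 (-0.34), both lost without some of the arrays (adjusted p up to 0.129 and 0.0631). RAPGEF1 has a second, dimmer probe set, and the mean of both fell by only 0.24, so the second set shared little of the fall. The limma adjusted p of APBB1IP, RAPGEF1, ACTN1, TNS3 and ZYX lay between 0.00129 for APBB1IP and 0.00785 for ZYX.

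Among other immunoglobulin-family and partner adhesion genes, 5 of 22 rose and 1 fell (27.3% called, beside 14.5% of all genes). The median of the 22 was 0.11. THY1, encoding a surface glycoprotein that integrins can bind, rose most. It read 5.16, 4.97 and 5.08 on unirradiated and 6.11, 6.37 and 6.20 on irradiated arrays, a log2 difference of 1.16 ± 0.09 (SE, limma adjusted p 5.02e-05) or 2.23-fold. PECAM1, an adhesion protein of endothelium and leukocytes, rose by 0.70 from a dim level of 4.78. Its second probe set was dimmer still, and the mean of both rose by only 0.33, so the second set did not share the rise. CD44, the hyaluronan receptor, read 10.97 to 11.01 on unirradiated and 11.28 to 11.35 on irradiated arrays and rose by 0.31 (adjusted p 0.0113). MADCAM1, the gut counter-receptor of the ITGA4 and ITGB7 pair, rose by 0.31 and the tetraspanin gene CD82 by 0.26, while ALCAM fell by 0.26. Those last 3 calls were lost with some arrays left out: MADCAM1 in 4 of 6 cases (adjusted p up to 0.111), CD82 in 5 (up to 0.136) and ALCAM in 5 (up to 0.167). The ICAM1 relatives ICAM2, ICAM3, ICAM4 and ICAM5, counted here, did not pass. ICAM4 came nearest, with a log2 difference of -0.27 (limma adjusted p 0.0509), and the others were at 0.01 (ICAM2), -0.16 (ICAM3) and 0.17 (ICAM5). The groups did not overlap for ICAM3, ICAM4 and ICAM5, beside 34.7% of all genes.

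To bind selectins, the product of SELPLG is decorated with fucose and sialic acid, and for some selectins it is sulfated as well. The selectin and selectin ligand synthesis genes numbered 17, of which 4 rose and 1 fell (29.4% called, beside 14.5% of all genes). The median of the 17 was 0.17. TPST2, a tyrosine sulfotransferase, read 9.78, 9.84 and 9.81 on unirradiated and 10.31, 10.29 and 10.29 on irradiated arrays, a rise of 0.49 ± 0.06 (SE, limma adjusted p 0.00106). Its homologue TPST1 rose by 0.37 (adjusted p 0.00735), and SLC35C1, which carries GDP-fucose into the Golgi, rose by 0.47 (0.00168). The fucosyltransferase gene FUT7 rose by 0.28 from a dim level of 5.05, a call lost without any 1 of 4 arrays (up to 0.103). ST3GAL6, a sialyltransferase gene, fell by 0.46 (adjusted p 0.0063). The mRNA of SELPLG itself differed by -0.05 over the same arrays.

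Genes of matrix proteins that integrins bind numbered 16, of which 1 rose and 3 fell (25% called, beside 14.5% of all genes), with a median of 0.07. LAMA5, a laminin chain, fell by 0.28, SPP1, encoding osteopontin, fell by 0.26 from 11.36, and FBN1, encoding fibrillin, fell by 0.23 from a dim 4.34. COL1A1, a collagen chain, rose by 0.23. The limma adjusted p of the 4 lay between 0.0207 and 0.0404, and each call was lost without any 1 of at least 4 arrays. The fibronectin gene FN1 was bright and did not pass, with 11.09 to 11.18 on unirradiated and 11.21 to 11.30 on irradiated arrays.

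**Figure D4:**
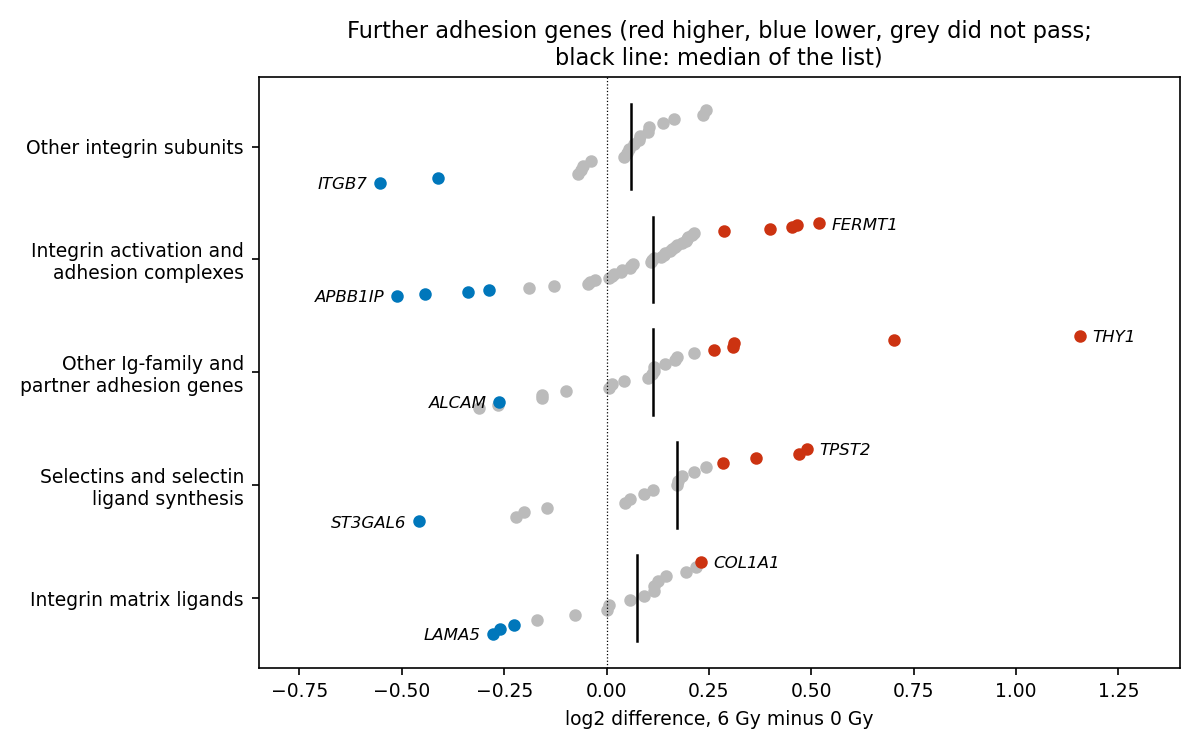
Log2 difference between irradiated and unirradiated arrays (horizontal axis) of each measured gene in 5 lists of further adhesion genes, red where called higher, blue lower and grey where the test was not passed, with the median of each list as a black line. THY1 at 1.16 lies farthest to the right and ITGB7 at -0.55 farthest to the left, and the medians lie between 0.06 and 0.17.

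The genes whose values over the 6 arrays ran most like those of ITGAM were RIMKLA (Pearson r 0.994), NGRN (0.991) and SCD5 (0.991), out of 3090 genes with a difference at least 0.5 times as large. Most like ITGB1 were NUP85 (0.9996), KIZ (0.997) and ACADVL (0.997), out of 8798. The 6 points share the division into 2 groups, so any gene that differs cleanly between the groups correlates highly, and these coefficients are descriptions only.

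**Figure D5:**
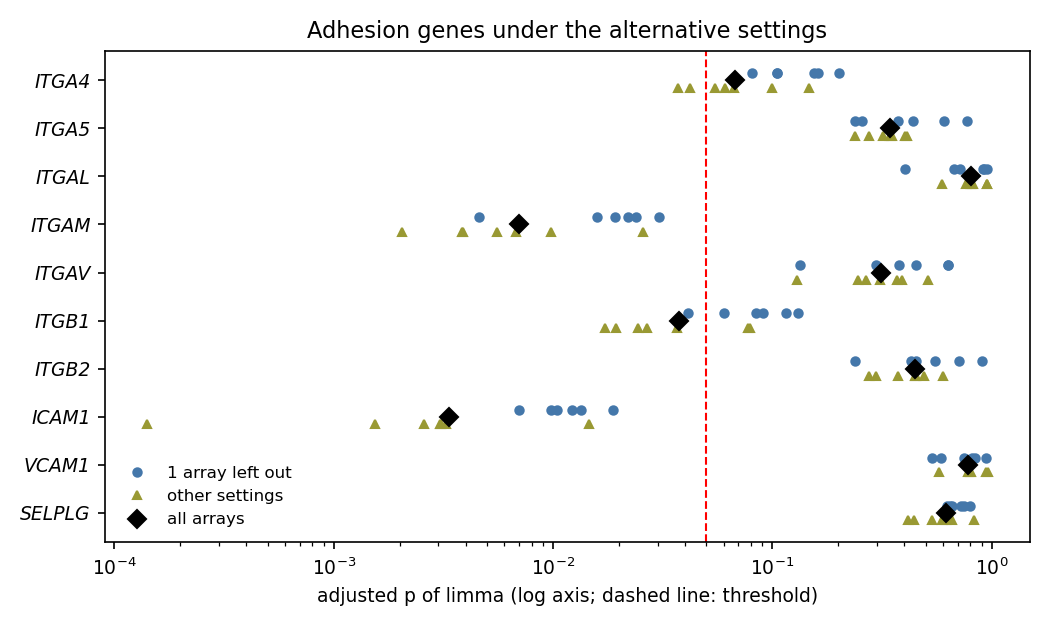
Adjusted p of limma (horizontal log axis; dashed line at the threshold of 0.05) for the 10 genes with all arrays (black diamonds), with 1 array left out (blue circles) and under the other settings (olive triangles). ICAM1 and ITGAM stay left of the line throughout, up to 0.0187 and 0.0305, ITGB1 crosses it, and ITGA4 reaches from 0.0373 to 0.202.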

How the data were processed

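The deposited table holds 33297 probe set values on each of 6 arrays, which were read as log2 intensities made by the authors; base 2 is inferred from the range, about 2 to 14, and every fold rests on it. The software, the background correction and the normalization method are not stated. Per the labels' protocols RNA was extracted with Trizol. If the arrays were scaled to each other, a global shift would not be seen. The platform annotation, which can be old, names a single gene for 19460 probe sets, more than 1 for 1754 and no gene for 12083. Of the single-gene sets, 19429 matched RefSeq (GRCh38.p14) by Entrez ID. Where a gene had several probe sets, the one with the highest mean was used.

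Groups were compared with limma 3.58.1 (lmFit, eBayes) in R 4.3.3, two-sided, no covariate, no filter on dim genes, Benjamini-Hochberg over 18417 genes, with 4 residual and 5.85 prior degrees of freedom. The median SE was 0.08, and the number of arrays limits the precision. "Rose" and "fell" are used of genes that passed. Tested on simulated data with the real means and spreads, the fit recovered 4% of 50 changes of 0.25, 66% of those of 0.5 and 94% of those of 1 on the log2 scale, with 7 false calls. The simulation changed only 50 genes of each size out of 18417, a far smaller share than the 14.5% called in the data. Its recovery rates therefore need not hold for the real comparison. Tables were made with pandas 2.3.3 in Python 3.11.15 and drawn with matplotlib 3.10.9.

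The members and gene lists were chosen with earlier results of these data known. The naming rule took all 10 members, and of each further list up to 6 passing genes with the largest differences. Some listed genes, such as ITGA1, CRK, FLNA, F11R and GCNT1, are not reported here. Alternatives were the sample number as a block, each array left out, no dim genes, other normalizations, variance models, array weights, probe set means and a stricter threshold.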

Additional observations from a re-analysis of the deposited data

How the results depend on the processing

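ICAM1 and ITGAM were called higher under all 14 alternatives, with log2 differences of 0.41 to 0.48 and 0.44 to 0.63; the count of members higher was 2 each time. The count of members lower, 1 with all arrays, was 0 or 1 with 1 array left out, 0 after quantile normalization and at an adjusted p under 0.01, and 2 without the dimmest 33.3% of genes and with array medians subtracted; ITGA4 was then the other. VCAM1 is among those dimmest genes and has no value there. A pair of genes near 0 changed sign: VCAM1 to -0.016 and -0.033 without unirradiated replicate 1 and irradiated replicate 1, and ITGAL to -0.022 and -0.023 without replicate 3 of the unirradiated and of the irradiated arrays. With 1 array left out VCAM1 lay between -0.033 and 0.102 and ITGAL between -0.023 and 0.135. Over all genes, 619 to 887 were higher and 852 to 1324 lower with 1 array left out, which tests with fewer samples, and 384 and 693 at an adjusted p under 0.01. Same-numbered samples did not visibly deviate together (correlations of -0.04, 0.10 and -0.11), and differently numbered ones ran from -0.11 to 0.15. Whether the sample number pairs them is not stated, and these weak values cannot decide it. With that number as a replicate block, 765 genes were higher and 1154 lower, 2 members were higher and 0 lower, and the limma adjusted p of ITGB1 was 0.0792. Subtracting array medians shifted the median difference of all genes by -0.03. No detection calls show which dim genes lie above background.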

Other observations

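Of the 11 plasma cell markers, 9 lay above the array medians without irradiation, with IRF4 at 11.48 to 11.50 and PRDM1 at 11.04 to 11.12 on the unirradiated arrays. Of the list, 1 rose and 2 fell (27.3% called, beside 14.5% of all genes). CD38, the surface enzyme that also binds PECAM1, fell by 0.42 from 10.59 to 10.18 (limma adjusted p 0.0127, and 0.055 without unirradiated replicate 2), and XBP1 fell by 0.23, a call lost without any 1 of 5 arrays (up to 0.117). SLAMF7, which encodes another surface protein, rose by 0.55 from a dim 4.63.

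Of 8 T cell markers, CD5 (0.38) and LCK (0.26) rose and CD28 and CD4 (-0.38) fell (50% called, beside 14.5% of all genes). With some arrays left out the calls were lost for all 4. CD28, a costimulatory receptor gene, was bright in these cells and fell by 0.33 from 11.25 to 10.93 (limma adjusted p 0.0141, and up to 0.0532 without unirradiated replicate 2 or irradiated replicate 1). The CD3 chain genes CD3D, CD3E and CD3G lay below the medians of the unirradiated arrays and did not pass. Above the array median on all unirradiated arrays were 3 of the T cell markers, CD28, CD4 (6.14 to 6.23) and CD8A (6.01 to 6.10). CD4 and CD8A still lay below the medians over genes, and CD8A did not pass. Of 8 stromal and endothelial markers, COL3A1 rose by 0.29 from a dim 5.26 (12.5% called, beside 14.5% of all genes). That call was lost without any 1 of 5 arrays (limma adjusted p up to 0.0845). Of these 8 markers, 0 lay above the array median on all unirradiated arrays.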
